A study of Mus musculus with 6 samples.

Results

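The junctions described here start in Sμ, a switch region in the immunoglobulin heavy chain locus (IgH) of the mouse. The sequence joined to it, the prey, is in minus orientation and lies within the authors' Sμ window. That window also takes in the gene Ighm, which follows the Sμ repeats. The junctions are all 1377 lines of the 6 libraries' Sμ junction lists with strand -1, out of 4214 listed IgH junctions. The wild-type libraries hold 179 and 105 of them, the ATM KO libraries 115 and 495, and the ATM RX/RX libraries 307 and 176. The Sμ lists hold a further 891 junctions in plus orientation.

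High-throughput genome-wide translocation sequencing (HTGTS) was used, which reads out from a fixed break region, the bait, into whatever sequence was joined to it, the prey. The cells were splenic B cells without CD43 from mice of strain 129, cultured with IL-4 at 20 ng/mL plus anti-CD40 at 1 ng/mL, over 4 days. There were 3 genotypes with 2 libraries each: wild type, ATM-/- (ATM KO) and ATM RX/RX, homozygous for an ATM allele labelled RX. Per the design text, all the mice carry a preassembled IgH locus of 129 origin. The labels do not tie the libraries to animals, so the spread between libraries may be technical. An exact permutation p rests on that spread alone. In the edgeR tests below, the fitted variance was close to counting error or under it. It was 1.05 times counting error for position bins, 0.865 times for structure by distance and 0.555 to 1.29 times for structure classes. Those p-values thus reflect mostly the number of junctions counted, and a variance under counting error makes them smaller than counting error alone would.

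Class switch recombination replaces the IgM constant region by joining a break in Sμ to a break in a downstream switch region. Activation-induced deaminase starts these breaks in the repeats of the switch regions, where the motif AGCT is a preferred target. ATM is the kinase that signals double-strand breaks and helps hold their ends for joining. When both breaks lie in Sμ, the joint is internal. A prey downstream of the bait in minus orientation has the layout of a deletion, which a join to another chromosome copy can also give. One in plus orientation is an inversion or a join to another chromosome copy. Blunt joints and short insertions are typical of classical end joining, and overlaps of bases shared by both sides (microhomology) are used more by alternative end joining. Past the Sμ repeats lies Ighm, whose exons encode the constant region of the μ heavy chain.

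Each read starts in the bait. It is shown from the first base of the nested primer, in the direction of the read, because all distances and overlaps below are counted from its end. In mm9 it lies at chr12:114664760-114664909 on the minus strand. The first capitals mark agctg, the overlap used most among those of 5 bp or more, and the second the AflII site, at which unrearranged product was cut.
Sμ bait: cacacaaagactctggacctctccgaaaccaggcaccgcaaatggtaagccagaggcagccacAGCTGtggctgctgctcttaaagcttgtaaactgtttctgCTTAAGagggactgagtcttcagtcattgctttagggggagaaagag
Of 1342 reads that hold the nested primer, 88.6% had a bait equal to mm9 up to the joint. The reads kept 31 to 210 bases of bait, with a median of 57, and in 7 reads the bait ran past the AflII site at bases 104 to 109.

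The joints with the farthest prey listed for each genotype are shown as examples of far joints. The list ends at the lower edge of the authors' Sμ window, farther junctions are listed elsewhere, and the genotypes differ in their number of junctions (284, 610 and 483). Capitals mark bases covered by both the alignment of the bait (left) and that of the prey (right).
Wild type farthest: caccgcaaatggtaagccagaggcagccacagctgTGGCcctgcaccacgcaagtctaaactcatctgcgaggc
ATM KO farthest: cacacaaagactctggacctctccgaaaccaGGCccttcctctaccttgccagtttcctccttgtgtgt
ATM RX/RX farthest: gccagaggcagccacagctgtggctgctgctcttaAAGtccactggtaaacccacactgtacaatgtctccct
The wild-type joint has its prey 6081 bp from the bait end and 4 shared bases. Matched to mm9, that prey starts at 114660457 in an exon of Ighm. The ATM RX/RX prey lies 7375 bp away and also starts in an Ighm exon, at 114659149. The ATM KO prey lies 7712 bp away and starts at 114658864, past the last annotated Ighm exon.

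The longest overlaps of the other kind of example lie close to the bait.
Wild type longest overlap: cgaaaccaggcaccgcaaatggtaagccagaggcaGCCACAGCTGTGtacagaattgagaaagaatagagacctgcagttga
ATM RX/RX longest overlap: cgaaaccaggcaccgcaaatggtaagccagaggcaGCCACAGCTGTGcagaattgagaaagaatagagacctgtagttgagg
ATM KO longest overlap: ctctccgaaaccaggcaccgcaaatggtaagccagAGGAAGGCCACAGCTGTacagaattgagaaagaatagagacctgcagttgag
The wild-type and ATM RX/RX joints share the same 12 letters and are listed at the same prey coordinate, 660 bp from the bait end. The ATM KO overlap of 17 bp comes from alignments with mismatches, since its letters are not all in the mm9 bait. All of these prey cover the same place, yet the reads differ in the letters right after gccacagctgt. Their prey alignments therefore cannot all be free of mismatches or gaps, and the exact ends of these overlaps are uncertain. Over all overlaps, 949 of 959 (99.0%) had all letters in the mm9 bait, and the prey side was not checked in this way. The nearest joints lay 2 bp (wild type), 7 bp (ATM KO, on the upstream side) and 10 bp (ATM RX/RX) from the bait end and are given by value alone.

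The libraries hold 414 to 1849 junctions in all and 298 to 1446 in IgH, so the number of junctions limits the precision of every share. All intervals are exact Clopper-Pearson intervals at 95% and cover counting error only. Prey alignments had medians of 79 to 96 bases. Between 3 and 26 of a library's minus junctions matched one in another library in coordinate, orientation, bait end and gap. ATM KO replicate 2 is the largest of the 6 libraries and ATM KO replicate 1 the smallest, and they differ in several shares below.

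The far end of the distance distribution held more junctions in both mutants than in wild type. Prey 4 kb or more from the bait end made up 6.15% (interval 3.11 to 10.7) and 4.76% (1.56 to 10.8) of the wild-type junctions. In ATM KO the shares were 14.8% (8.85 to 22.6) and 20.2% (16.8 to 24.0), and in ATM RX/RX 20.2% (15.8 to 25.1) and 22.2% (16.3 to 29.0). Each mutant share lay above both wild-type shares, although the interval of ATM KO replicate 1 overlaps both wild-type intervals. Here and below, overlap between groups or libraries refers to the library values and not to their intervals. Averages were 5.45% ± 0.978 in wild type, 17.5% ± 3.83 in ATM KO, with 21.2% ± 1.39 for ATM RX/RX (SD, n = 2 each), or 3.21 and 3.88 times the wild-type mean. The 2 mutant comparisons share the wild-type libraries. For each, the exact two-sided permutation p over libraries was 0.3333, the smallest that 2 against 2 libraries allow, and 0.524 after Benjamini-Hochberg adjustment over the 33 single-value comparisons made (11 measures, 3 pairs of genotypes).

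Prey 5 kb or more away were scarcer still in wild type. There were 2 of 179 and 1 of 105 in wild type, 8 of 115 and 36 of 495 in ATM KO, with 27 of 307 and 18 of 176 for ATM RX/RX. The mean shares were 1.03% ± 0.117, 7.11% ± 0.224 and 9.51% ± 1.01 (SD, n = 2 each). With the limit at 2 kb the shares were 31.3% and 24.8% in wild type, 48.7% and 34.7% in ATM KO, with 41.0% and 49.4% for ATM RX/RX. Again no mutant library overlapped wild type, but the difference of means, 13.7 and 17.2 percentage points, came with an SD of up to 9.86 within a genotype. Leaving out 1 library at a time moved the ATM KO difference between 6.72 and 20.7 points. With the limit at 1000 bp the sign turned, to -0.982 points in ATM KO, with -3.49 for ATM RX/RX.

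The middle of the distribution did not separate the genotypes. The median distance was 1282 and 1210 bp in wild type, 1975 and 1155 bp in ATM KO, with 1280 and 1892 bp for ATM RX/RX. One library of each mutant lay at or under the higher wild-type value, and the exact permutation p was 1.0 for ATM KO and 0.6667 for ATM RX/RX. The 90th percentile did separate them: 3685 and 3470 bp in wild type against 4652, 4654, 4768 and 5013 bp in the mutant libraries.

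**Figure D1:**
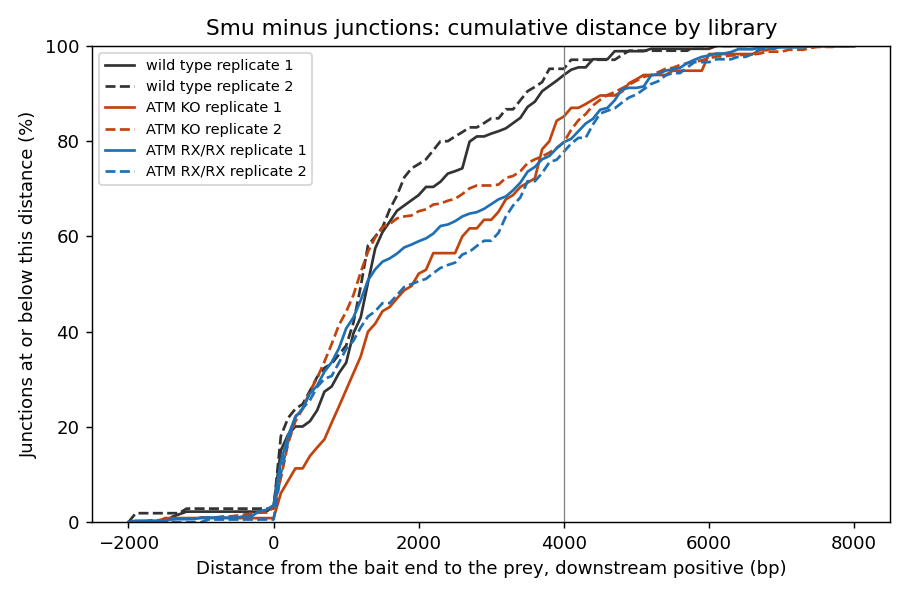
Cumulative share (%) of minus-orientation Sμ junctions against the distance from the bait end to the prey (bp, downstream positive), a line per library, with a grey line at 4 kb. The libraries mix up to the medians of 1155 to 1975 bp, and above about 4 kb both wild-type lines lie over all 4 mutant lines.

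Junctions next to the bait took similar shares in the 3 genotypes. Less than 500 bp downstream there were 17.9% and 24.8% of the junctions in wild type, 13.0% and 24.4% in ATM KO, with 23.5% and 25% for ATM RX/RX, so the groups overlap. The class from 1 to 2 kb was the one in which wild type was high: 35.8% and 38.1%, against 23.5% and 21.0% in ATM KO, with 18.2% and 14.2% for ATM RX/RX. Here the groups did not overlap. Prey upstream of the bait end, which cannot be deletions on the same chromosome copy, were few: 6 and 3 in wild type, 1 and 15 in ATM KO, with 11 and 1 for ATM RX/RX.

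**Figure D2:**
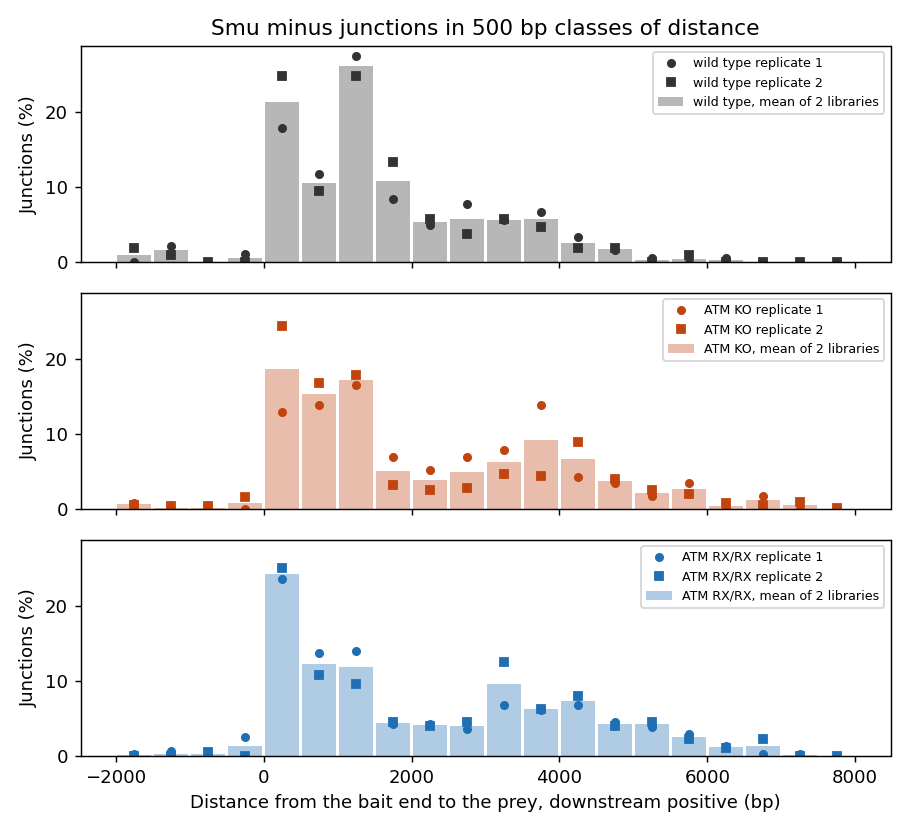
Share (%) of minus-orientation Sμ junctions in 500 bp classes of distance from the bait end (bp), a panel per genotype, with bars for the mean of 2 libraries and points for each library. Wild type has its highest bar at 1000 to 1499 bp (27.4% and 24.8%), and the mutants have more between 4000 and 6000 bp.

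Bins of 500 bp in the authors' build placed these differences. That build is mm9 with 129 sequence exchanged in IgH, so its coordinates are not mm9 coordinates and were not converted. The number of junctions per bin was tested with edgeR's quasi-likelihood test over all 63 bins of Sμ, Sγ1 and Sε in both orientations, with each region and orientation total as offset. In ATM RX/RX against wild type 2 of the 63 bins passed an adjusted p of 0.05 (3.17%), and both are among the 14 minus Sμ bins. In ATM KO against wild type edgeR called 0 of 63 (0%), with 11 at an unadjusted p under 0.05. DESeq2 called 0 in either comparison, with 2 bins in ATM KO, with 4 for ATM RX/RX at an unadjusted p under 0.05.

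The bin at chr12:114663501-114664000 held no wild-type junction, 1 and 12 in ATM KO, with 9 and 7 for ATM RX/RX. It was called in ATM RX/RX by edgeR (adjusted p = 0.00765) but not by DESeq2 (adjusted p = 0.212). Pooled, it held 3.31% of the ATM RX/RX junctions. That is 3.14 times the share of the 3 counts that a wild-type count of 0 allows over both libraries. The ratio leaves out the counting error of the mutant junctions and the spread between libraries, so it is no lower bound. For ATM KO the same ratio was 2.02, without a call (edgeR adjusted p = 0.158). With the IgH total of each library as offset the bin was called in ATM KO too (log2 5.39 ± 1.60, edgeR adjusted p = 0.0303). Both wild-type counts are 0, so the size of that log2 and its SE depend on how the fit treats a 0. They are no estimate of the size of the difference. The IgH total as offset mixes the amount of minus Sμ junctions with their position. Minus Sμ junctions were 179 of 721 and 105 of 391 IgH junctions in wild type. The mutants had larger parts, 115 of 298 and 495 of 1446 in ATM KO, with 307 of 859 and 176 of 521 for ATM RX/RX. The ATM RX/RX call was lost without either wild-type library or without ATM RX/RX replicate 2, with edgeR adjusted p up to 0.473. All 29 junctions of this bin matched mm9 uniquely, from 114660870 to 114661353, and 8 of them lie within Ighm: the bin spans the first bases of the gene.

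The other called bin, chr12:114667501-114668000, was lower in ATM RX/RX. It held 21.2% and 19.0% of the junctions in wild type, 12.2% and 12.1% in ATM KO, with 9.77% and 7.39% for ATM RX/RX. The mutant libraries all lay under wild type. The ATM RX/RX share fell by 1.19 ± 0.31 (SE) as log2 (edgeR adjusted p = 0.00765), and the ATM KO difference was -0.75 ± 0.28 without a call (edgeR adjusted p = 0.159). The ATM RX/RX call was lost without any single library of either genotype (edgeR adjusted p up to 0.473), and DESeq2 gave an adjusted p of 0.609. With the IgH total as offset the difference was -0.76, and the call was lost (edgeR adjusted p = 0.181).

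The 3 bins with the most junctions did not pass in any comparison. They are chr12:114668001-114668500 with 221 junctions over the 6 libraries, chr12:114669001-114669500 with 210, which holds the bait itself, and chr12:114668501-114669000 with 184. Their log2 differences from wild type ran from -0.39 ± 0.28 to 0.75 ± 0.33 in ATM KO, with from -0.32 ± 0.30 to 0.65 ± 0.35 for ATM RX/RX.

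The bins nearest to and inside Ighm were thinly filled in wild type throughout. From the window's lower edge to 114664000 there was 1 junction in each wild-type library, both in the bin 114663001-114663500. That bin held 4 and 7 junctions in ATM KO, with 6 and 3 for ATM RX/RX. The bin 114664001-114664500, just upstream of the gene, held 1 and 2 in wild type, 5 and 18 in ATM KO, with 15 and 8 for ATM RX/RX, which is a log2 difference of 2.11 ± 0.74 for ATM RX/RX without a call (edgeR adjusted p = 0.104). With the IgH total as offset, which also takes in the larger amount of minus Sμ junctions in the mutants, that bin was called (log2 2.53 ± 0.78, edgeR adjusted p = 0.0293). Wider bins put more of these counts together. In bins of 1000 bp, edgeR called 114663001-114664000 in ATM KO (log2 2.39 ± 0.81, edgeR adjusted p = 0.0333) and in ATM RX/RX (2.79 ± 0.78, edgeR adjusted p = 0.00509). The bin 114664001-114665000 was called as well, at log2 1.49 ± 0.46 (edgeR adjusted p = 0.016) in ATM KO and 1.77 ± 0.45 (edgeR adjusted p = 0.00189) in ATM RX/RX. The bin 114662001-114663000 was called higher in ATM RX/RX alone (edgeR adjusted p = 0.044), a difference between the mutants that was not tested in these bins. The bin 114667001-114668000, which takes in the lower bin above, was called lower in both: by -0.76 ± 0.22 in ATM KO (edgeR adjusted p = 0.016) and by -1.02 ± 0.24 in ATM RX/RX (edgeR adjusted p = 0.00103).

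To tie prey to the gene itself, each prey sequence was matched to mm9. The annotation used puts Ighm at chr12:114659078-114660941 on the minus strand with 4 exons. Any Ighm exon outside it was not considered, here and below. A unique match was found for 973 of the 1377 junctions (70.7%). Most of those without one lie between 114665001 and 114668000 of the authors' build, and their share per library ran from 21.0% in ATM KO replicate 2 to 41.7% in ATM KO replicate 1, with 40.2% and 37.1% in wild type. Counting matches of any mapping quality gave the same differences in the Ighm share.

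Prey within Ighm numbered 51, of which 49 came from the mutants. Wild type had 1 of 179 (0.559%, interval 0.0141 to 3.07) and 1 of 105 (0.952%, 0.0241 to 5.19). ATM KO had 6 of 115 (5.22%, 1.94 to 11.0) and 19 of 495 (3.84%, 2.33 to 5.93). ATM RX/RX had 14 of 307 (4.56%, 2.52 to 7.53) and 10 of 176 (5.68%, 2.76 to 10.2). The library shares of neither mutant overlapped those of wild type. The intervals of both wild-type libraries do overlap those of every mutant library, and each wild-type share rests on 1 junction. The means were 0.756% ± 0.278, 4.53% ± 0.975 and 5.12% ± 0.793 (SD, n = 2 each), and the exact permutation p was 0.3333 for each mutant.

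Within the gene as annotated, prey were found in every annotated exon. Exon 1, at chr12:114660627-114660941 and nearest to Sμ, held 20, exon 2 held 7, exon 3 held 6 and exon 4 held 4, and the introns held 14. Both wild-type prey lay in exons. In ATM KO 19 lay in exons and 6 in introns, and in ATM RX/RX 16 and 8. These prey lay 5582 to 7454 bp from the bait end.

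Minus-orientation junctions did not stop at the lower edge of the authors' Sμ window. In the authors' list of other IgH junctions, the next 10 kb held 0 minus-orientation junctions in each wild-type library, 5 and 10 in ATM KO, with 8 and 7 for ATM RX/RX. The last 1000 bp inside the window held 0 in each wild-type library, 2 and 8 in ATM KO, and 1 in each ATM RX/RX library.

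Plus-orientation Sμ junctions did not share the shift to far prey. Their share 4 kb or more from the bait end was 5.08% and 8.82% in wild type, 5.56% and 2.33% in ATM KO, with 1.72% and 3.74% for ATM RX/RX. These shares rest on 3 junctions in each wild-type library, 4 and 9 in ATM KO, and 4 in each ATM RX/RX library. With the limit at 2 kb the plus share averaged 20.2% ± 4.65 in wild type, 13.3% ± 2.76 in ATM KO, with 12.6% ± 0.718 for ATM RX/RX. Neither mutant overlapped wild type there, so a lower plus share in the mutants can add to a difference between orientations. These totals take in prey upstream of the bait end, which lower every far share. Upstream prey made up 8.47% and 20.6% of the plus junctions in wild type and 16.7% and 24.8% in ATM KO. In ATM RX/RX they made up 35.3% and 29.9%, and in minus orientation at most 3.58% in any library. Far shares over downstream plus prey alone were not computed. Per library, the minus share less the plus share averaged -1.50 points ± 3.62 in wild type, 13.6 ± 6.12 in ATM KO, with 18.4 ± 0.0357 for ATM RX/RX (SD, n = 2 each). That difference between orientations did not overlap between either mutant and wild type (exact permutation p = 0.3333 for each). In Ighm there was 1 plus-orientation prey over all 6 libraries, in ATM RX/RX replicate 1.

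The balance of orientations also differed along the Sμ window. From 1 to 2 kb, minus junctions made up 78.0% and 83.3% of the Sμ junctions in wild type, 62.8% and 56.5% in ATM KO, with 62.2% and 51.0% for ATM RX/RX. At 4 kb or more they made up 78.6% and 62.5% in wild type, 81.0% and 91.7% in ATM KO, with 93.9% and 90.7% for ATM RX/RX. Mutant libraries lay under wild type in the nearer class. In the farther one they lay over it, but on few junctions in wild type: 11 minus and 3 plus in replicate 1, and 5 and 3 in replicate 2. ATM KO replicate 1, with 17 minus and 4 plus, lay only just above wild-type replicate 1.

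**Figure D3:**
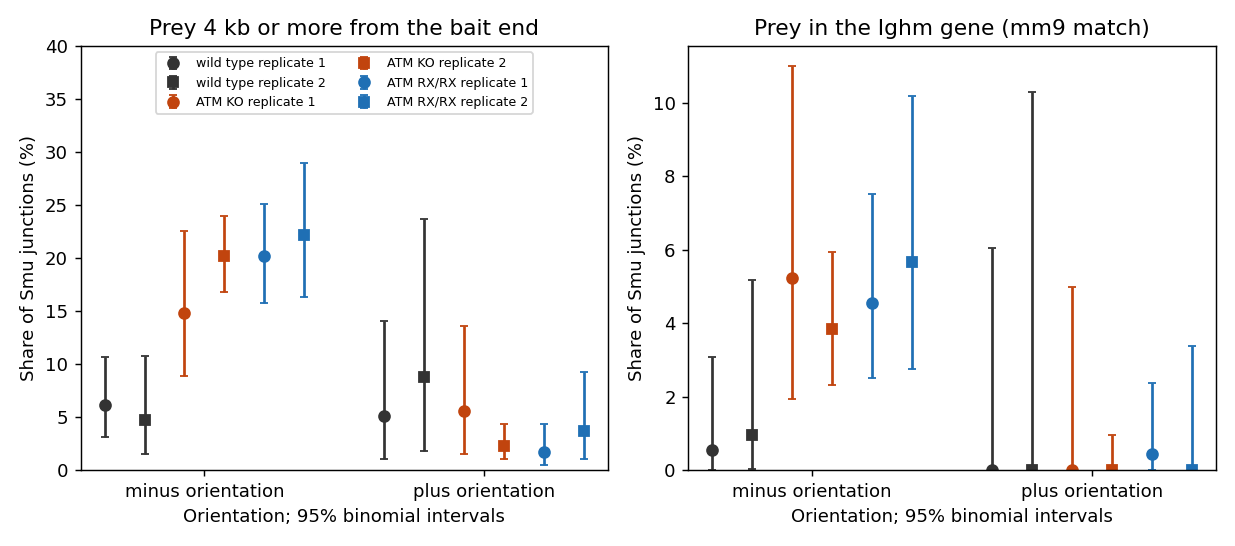
Share (%) of Sμ junctions with prey 4 kb or more from the bait end (left) and with prey in the Ighm gene by match to mm9 (right), in minus and plus orientation, a point per library with its 95% binomial interval. In minus orientation the 4 mutant libraries lie at 14.8% to 22.2% on the left and at 3.84% to 5.68% on the right, above both wild-type libraries.

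The joints themselves were also built differently in the mutants, with fewer blunt joints and more overlaps. Blunt joints were 26.8% and 23.8% of the minus junctions in wild type, 10.4% and 12.7% in ATM KO, with 10.7% and 11.4% for ATM RX/RX. Joints with any overlap were 58.7% and 58.1% in wild type, 75.7% and 69.1% in ATM KO, with 75.2% and 75.6% for ATM RX/RX. Insertions did not separate ATM KO from wild type: 14.5% and 18.1% in wild type, 13.9% and 18.2% in ATM KO. Those of ATM RX/RX, 14.0% and 13.1%, lay just under wild type. In plus orientation, too, blunt joints were lower in every mutant library than in wild type: 25.4% and 20.6% of the plus Sμ junctions in wild type, 12.5% and 10.3% in ATM KO, with 9.05% and 9.35% for ATM RX/RX. The minus share less the plus share of blunt joints averaged 2.31 points ± 1.29, 0.163 ± 3.15 and 1.86 ± 0.227 (SD, n = 2 each). It overlapped between each mutant and wild type (exact permutation p = 0.6667 for ATM KO and 1.0 for ATM RX/RX). Overlaps in the minus junctions, where present, averaged 2.35 bp ± 0.081 in wild type, 2.78 ± 0.0498 in ATM KO, with 2.81 ± 0.0612 for ATM RX/RX (SD, n = 2 each). In the plus junctions their length did not rise in the mutants. It averaged 3.55 bp ± 0.553 in wild type, 3.13 ± 0.0835 in ATM KO, with 3.15 ± 0.0434 for ATM RX/RX, and both mutants overlapped wild type. The share of plus junctions with any overlap was higher in both mutants, at 65.0% ± 2.38 and 67.9% ± 0.39 against 55.9% ± 0.0352.

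The 8 structure classes were tested with edgeR over 41 classes of Sμ, Sγ1 and Sε in both orientations. In ATM RX/RX against wild type 9 of the 41 passed (22.0%), 4 of them among the 8 minus Sμ classes. In ATM KO against wild type 3 of 41 passed (7.32%), 2 of them minus Sμ. The fitted spread in this family was partly below counting error, so each call is given with the edgeR adjusted p of a fit whose spread was held at counting error or above, which was added once these data had been seen. DESeq2 called 0 of 41 in either comparison, with 2 classes in ATM KO, with 7 for ATM RX/RX at an unadjusted p under 0.05.

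Blunt joints fell by 1.22 ± 0.26 (SE) in ATM RX/RX, as log2 (edgeR adjusted p = 0.00186, and 0.0189 with the held spread). In ATM KO they fell by 1.06 ± 0.24 (edgeR adjusted p = 0.00565, and 0.0408 with the held spread). These are the joints with neither a base gained nor a base shared. The ATM RX/RX call was lost without wild-type replicate 1 (edgeR adjusted p = 0.0922), and the ATM KO call without wild-type replicate 1 or ATM KO replicate 2 (up to 0.253).

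Insertions of 1 bp fell by 1.68 ± 0.51 in ATM RX/RX, from 7.26% and 7.62% in wild type to 2.28% and 2.27% (edgeR adjusted p = 0.00968, and 0.0382 with the held spread). In ATM KO their shares were 6.09% and 4.44%, with a log2 difference of -0.63 ± 0.42 and no call (edgeR adjusted p = 0.278). Insertions of 2 bp or more were 7.26% and 10.5% in wild type, 7.83% and 13.7% in ATM KO, with 11.7% and 10.8% for ATM RX/RX, and passed in no comparison. The mutant means were thus above wild type for longer insertions and below it for those of 1 bp. Leaving out wild-type replicate 1 or ATM RX/RX replicate 1 ended the call for 1 bp insertions (edgeR adjusted p up to 0.0976).

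Overlaps of exactly 3 bp rose most clearly. They were 5.59% and 9.52% of junctions in wild type, 21.7% and 14.5% in ATM KO, with 16.9% and 17.6% for ATM RX/RX. The log2 difference was 1.28 ± 0.33 for ATM RX/RX (edgeR adjusted p = 0.0113, and 0.0341 with the held spread) and 1.17 ± 0.32 in ATM KO (0.0473, and 0.0837, no longer called). Leaving out any one ATM KO or wild-type library ended the ATM KO call (edgeR adjusted p up to 0.353), and leaving out wild-type replicate 1 ended that of ATM RX/RX (0.251).

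Overlaps of 5 bp or more were 5.59% and 3.81% in wild type, 13.0% and 9.09% in ATM KO, with 11.1% and 10.2% for ATM RX/RX. The rise of 1.12 ± 0.40 in ATM RX/RX passed (edgeR adjusted p = 0.0331) but not with the held spread (0.0817), nor without wild-type replicate 1 or 2 or ATM RX/RX replicate 1 (up to 0.138). In ATM KO the difference was 0.99 ± 0.40 with no call (edgeR adjusted p = 0.0687). Overlaps of 1, 2 and 4 bp passed in no comparison. At 4 bp the groups lay close, with means of 7.95%, 8.05% and 7.60%, although the wild-type libraries were at 4.47% and 11.4%.

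**Figure D4:**
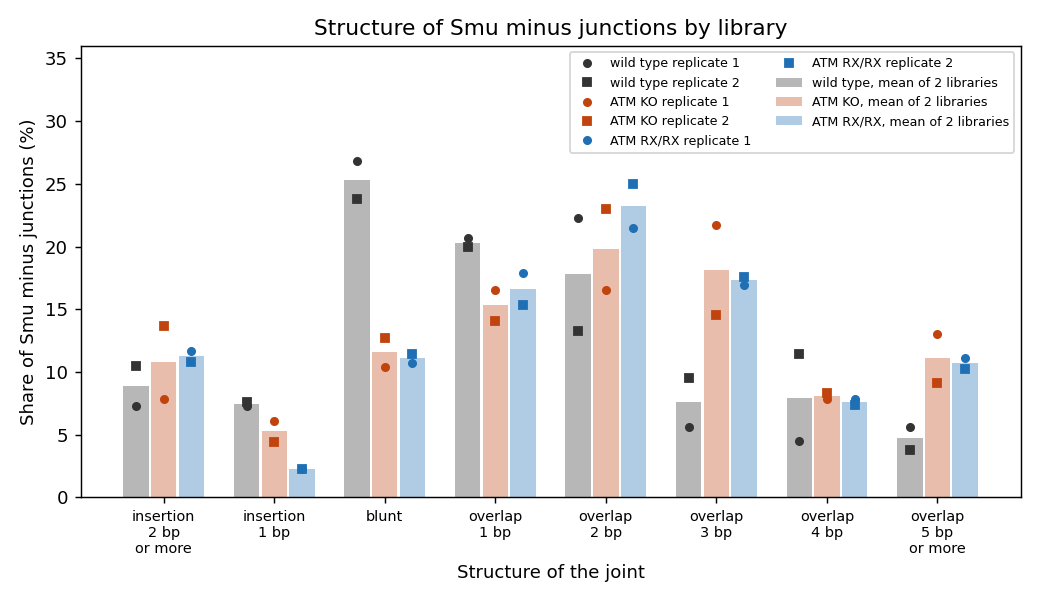
Share (%) of minus-orientation Sμ junctions in each of 8 structure classes, from insertions to overlaps of 5 bp or more, with bars for the mean of 2 libraries and points for each library. Wild type stands at 26.8% and 23.8% for blunt joints against 10.4% to 12.7% in the 4 mutant libraries, and lower than they do for overlaps of 3 bp and of 5 bp or more.

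The letters of the overlaps show what they are made of. The sequence agctg accounted for 54 of the 126 overlaps of 5 bp or more, and 76 of the 126 held agct. Of the agctg joints 50 ended at bait base 68, the last base of the first capitals in the bait above, which was the bait end used most (89 of 1342 reads, or 6.63%). Their prey lay 847 to 4976 bp away, with a median of 3157 bp. The next most common overlaps of 3 bp or more were agc with 47 joints and tgg with 26, both of which can be read in the bait.

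The number of agctg joints was 4 and 2 in wild type, 11 and 19 in ATM KO, with 13 and 5 for ATM RX/RX. As shares these were 2.23% and 1.90%, 9.57% and 3.84%, and 4.23% and 2.84%. The highest was ATM KO replicate 1, the smallest library by its total. Overlaps of 5 bp or more without agct were 2.23% and 0.952% in wild type, 2.61% and 4.24% in ATM KO, with 4.23% and 4.55% for ATM RX/RX. Long overlaps with and without the motif were thus both scarcer in the wild-type libraries than in any mutant library, and these shares were not tested further.

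The same motif was counted on the prey side. In the first 20 bases of the prey, agct (the same on both strands) was present in 64.2% and 61.9% of wild-type junctions, 72.2% and 49.1% in ATM KO, with 53.7% and 57.4% for ATM RX/RX. Of all 20-base windows of the stretch chr12:114658864-114666769 of mm9, 27.1% held it. That stretch lacks part of the Sμ sequence of the authors' build, so the share is no background for these prey. The share followed distance: from 2 to 4 kb it was 97.0% in wild type, all 111 junctions in ATM KO, with 98.2% for ATM RX/RX, and under 500 bp it was 26.9%, 15.1% and 22.7%. At 4 kb or more it was 56.2% (9 of 16), 45.3% (53 of 117) and 35.6% (36 of 101). A match of these letters is a description and not a mapped break site.

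Split at 2 kb, mutant shares of blunt joints lay under wild type, and those of overlaps over it, on both sides of the limit. Within 2 kb, blunt joints averaged 23.5% ± 4.65 in wild type, 9.43% ± 3.74 in ATM KO, with 11.7% ± 0.65 for ATM RX/RX (SD, n = 2 each). Beyond 2 kb they averaged 30.7% ± 5.54, 14.1% ± 0.235 and 10.1% ± 1.95. Joints with an overlap averaged 59.2% ± 2.15, 73.3% ± 9.04 and 72.1% ± 1.91 within 2 kb, and 55.4% ± 7.58, 72.3% ± 1.29 and 79.1% ± 1.90 beyond it. In each of these 4 measures neither mutant overlapped wild type (exact permutation p = 0.3333 for each). Finer classes did not all separate. From 1 to 2 kb, the class with most wild-type junctions, 15 of 64 and 8 of 40 were blunt in wild type, against 1 of 27 and 21 of 104 for ATM KO. ATM RX/RX had 12 of 56 and 3 of 25, so the groups overlap. Overlaps there made up 62.5% and 52.5% in wild type, 81.5% and 65.4% in ATM KO, with 69.6% and 60% for ATM RX/RX, and ATM RX/RX overlapped wild type. From 500 bp to 1 kb the wild-type libraries themselves lay at 38.1% and 80% for overlaps.

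At 4 kb or more the wild-type counts were small. Of the far joints 2 of 11 and 2 of 5 were blunt in wild type. In ATM KO 1 of 17 and 12 of 100 were, and in ATM RX/RX 4 of 62 and 3 of 39. Overlaps were carried by 76.5% and 73.0% of these far joints in ATM KO, against 85.5% and 87.2% for ATM RX/RX. In every mutant library most far joints had an overlap, and the wild-type shares, 72.7% of 11 and 2 of 5, rest on few joints.

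Structure within 5 classes of distance was tested with edgeR over 37 classes of both orientations, with each distance class as its own total. The fitted spread lay below counting error in this family as well (0.865 times it, as variance). In ATM RX/RX against wild type 2 of 37 passed (5.41%), 1 of them in minus orientation. In ATM KO against wild type edgeR called 0 of 37 (0%), with 9 at an unadjusted p under 0.05. By DESeq2 0 were called and 1 had such a p. The class that passed was overlaps of 3 bp or more under 500 bp from the bait end, which here takes in the few prey upstream of it. Its share was 5.26% and 13.8% in wild type, 18.8% and 24.3% in ATM KO, with 32.5% and 37.8% for ATM RX/RX. The log2 difference in ATM RX/RX was 1.92 ± 0.53 (edgeR adjusted p = 0.0105, and 0.016 with the held spread; DESeq2 adjusted p = 0.44). The call was lost without wild-type replicate 1 (edgeR adjusted p = 0.309). In ATM KO the difference was 1.38 ± 0.56 without a call (edgeR adjusted p = 0.0854).

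**Figure D5:**
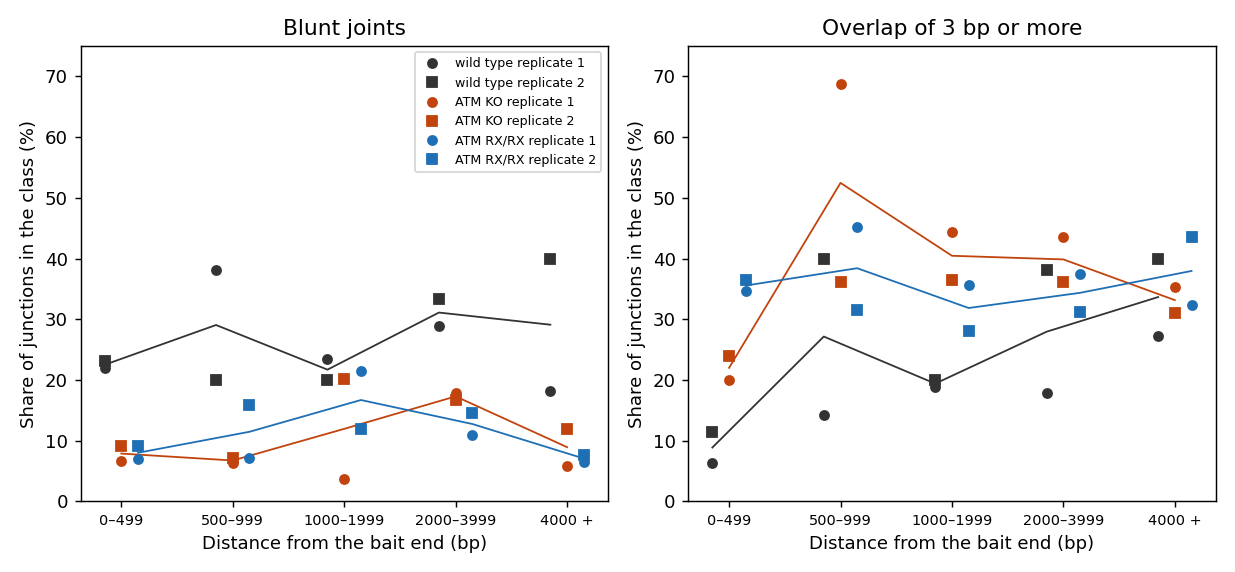
Share (%) of blunt joints (left) and of overlaps of 3 bp or more (right) among minus-orientation Sμ junctions in 5 classes of distance from the bait end (bp; prey upstream of it are left out), a point per library and a line through each genotype's mean. Under 500 bp the overlaps stand at 6.25% and 11.5% in wild type and at 34.7% and 36.4% in ATM RX/RX.

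ATM RX/RX and ATM KO were also compared with each other. Over all regions and orientations edgeR called 0 of 63 bins (0%), 1 of 41 structure classes (2.44%), which lies in Sε, and 0 of 37 classes by distance (0%). At an unadjusted p under 0.05 there were 5, 3 and 0, of which 0, 1 and 0 were minus Sμ features. DESeq2 called 0 in each family. For blunt joints the log2 difference was -0.16 ± 0.26, for overlaps of 3 bp 0.11 ± 0.22, and for insertions of 1 bp -1.04 ± 0.48 (edgeR adjusted p = 0.403). These errors leave room for differences, and a missed threshold does not show that the mutants are alike. The mutants did not overlap in 2 of the 11 single values: beyond 2 kb, ATM RX/RX had fewer blunt joints (difference -4.01 points) and more overlaps (6.78 points), each with an exact permutation p of 0.3333. Beyond 5 kb, a measure outside those 11, the ATM RX/RX share was 2.40 points higher and did not overlap that of ATM KO either.

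Minus-orientation Sγ1 junctions, joins to the IgG1 switch region with the layout of deletions, gave a comparison for structure. There blunt joints averaged 19.5% ± 2.71 in wild type, 16.9% ± 1.08 in ATM KO, with 11.6% ± 1.80 for ATM RX/RX (SD, n = 2 each). The Sμ share less the Sγ1 share of the same library averaged 5.80 points ± 0.587 in wild type and -5.30 ± 2.71 in ATM KO. In ATM RX/RX it averaged -0.541 ± 1.37, and neither mutant overlapped wild type (exact permutation p = 0.3333 for each). Overlaps of 3 bp or more averaged 22.2% ± 2.64 of the Sγ1 junctions in wild type, 38.8% ± 3.31 in ATM KO, with 45.0% ± 0.727 for ATM RX/RX, so both mutants lay above wild type there as well. For these overlaps the Sμ share less the Sγ1 share averaged -2.04 points ± 9.09 in wild type, -1.57 ± 4.25 in ATM KO, with -9.50 ± 1.15 for ATM RX/RX. ATM KO overlapped wild type (exact permutation p = 1.0), and ATM RX/RX overlapped neither wild type nor ATM KO (exact permutation p = 0.3333 for each).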

How the data were processed

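Per the labels' protocols, genomic DNA was amplified linearly from an Sμ primer, nested PCR followed and AflII cut unrearranged product before MiSeq sequencing. The submitters' processing notes name Bowtie2 and mm9, with no version given in the sources used here. IgH in that build was exchanged for 129 sequence, per the design text. The deposited counts are the authors' whole numbers of junctions per library, and the other deposited values are the coordinate, orientation and alignment ends of each junction. Distance was the bait end minus the prey coordinate, and the gap between the alignments gave the structure. In 3 libraries 1 or 2 lines of the minus Sμ list were empty and are not analysed here. Members, windows and measures were chosen with earlier results of these data known. Named bins and classes are those past the threshold, the 3 fullest bins and those nearest Ighm, and example joints are each genotype's farthest, nearest and longest overlap. Counts were tested with edgeR 4.0.16 (quasi-likelihood, 1 common dispersion, all 6 libraries, features with at least 10 junctions, Benjamini-Hochberg over each family, adjusted p of 0.05) in R 4.3.3, and DESeq2 1.42.0 was an alternative. Standard errors were not allowed under counting error. An offset total of 0 was set to 0.5. Prey were matched to mm9 with bwa (mapping quality of at least 30), a step added after the data were seen. Scripts were tested on simulated data. The replicate numbers share only a number, and the main fits have no block.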

Additional observations from a re-analysis of the deposited data

Results flagged for a closer look

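Minus-orientation junctions in the 10 kb past the Sμ window lie in the authors' list of other IgH junctions, which the tests above did not use. They made up 1.68% (interval 0.547 to 3.87) of the IgH junctions in ATM KO replicate 1 and 0.692% (0.332 to 1.27) in ATM KO replicate 2. In ATM RX/RX they made up 0.931% (0.403 to 1.83) and 1.34% (0.542 to 2.75). Each wild-type library had none of 721 and 391, with upper bounds of 0.51% and 0.939%. What drew attention is a signal in a list outside the main measurement, above the level in the control libraries. Matched to mm9, 29 of the 30 lie past the annotated end of Ighm. Plus-orientation junctions in the same stretch numbered 6 in ATM KO replicate 2, 1 in ATM RX/RX replicate 2 and 0 in the other 4 libraries.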

How the results depend on the processing

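The 396 recomputed single values kept their direction in 368, and 19 of the 28 that turned compare the mutants with each other. Without junctions matched in another library, the insertion difference between ATM KO and wild type became 0.00949 points and the overlap length difference between mutants -0.0667 bp. With prey of at least 50 bases, blunt joints between mutants became 0.196 and insertions in ATM KO 0.194 points, and without junctions under 200 bp blunt joints between mutants became 0.0606. With the limit at 1000 bp, the share beyond it turned to -0.982 (ATM KO), -3.49 (ATM RX/RX) and -2.51 (between mutants), and overlaps nearer than it to 2.25 between mutants. Overlaps of at least 4 bp gave -0.869 between mutants. Insertions of at least 2 bp gave 1.91 (ATM KO), 2.39 (ATM RX/RX) and 0.479 (between mutants). The cause was not tested. Leaving out each library in turn, the ATM KO difference from wild type ran from -91 to 729 bp for the median and in points from 6.72 to 20.7 beyond 2 kb, 7.63 to 20.4 for overlaps within 2 kb and -2.40 to 1.87 for insertions. The ATM RX/RX median difference ran from 34 to 646 bp. Between mutants the ranges were -389 to 431 bp (median), -3.46 to 10.5 (beyond 2 kb), -1.67 to 0.622 (blunt), -0.246 to 6.32 (overlap), -0.0103 to 0.0763 bp (overlap length), -0.379 to 4.92 (blunt within 2 kb), -7.53 to 5.26 (overlap within 2 kb) and -0.0964 to 1.28 (Ighm). The share beyond 4 kb differed from wild type by 9.33 to 14.7 points for ATM KO and 14.7 to 16.7 for ATM RX/RX.

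Counts of called features moved more. Of position bins, bins of 1000 bp gave 4 for each mutant against wild type, the IgH total as offset gave 9 and 11, and DESeq2 0 in ATM RX/RX. Leaving out each library gave 0 to 2 in ATM RX/RX. Of structure classes in ATM KO, TMM factors gave 8, a quasi-dispersion of at least 1 gave 1 and DESeq2 0, and leaving out each library 0 to 4. In ATM RX/RX DESeq2 gave 0, and leaving out each library 1 to 11. Between mutants TMM factors, the quasi-dispersion limit, DESeq2 and prey of at least 50 bases gave 0, as did each library left out (0 to 0). Of classes by distance in ATM RX/RX, TMM factors gave 1, DESeq2 0 and prey of at least 50 bases 0, with 0 to 2 on leaving out each library. Named minus Sμ classes that lost their call elsewhere were overlaps of 3 bp in ATM KO (TMM factors, adjusted p = 0.0816) and of 5 bp or more in ATM RX/RX (TMM factors, 0.159).

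The replicate numbers share only a number: over 61 bins the correlations of same-numbered deviations were 0.08, 0.10 and -0.11. With the replicate block edgeR called 0 structure classes in ATM KO, 9 in ATM RX/RX and 0 between mutants, 1 class by distance in ATM RX/RX and 2 bins in ATM RX/RX. Under the block blunt joints in ATM KO had an adjusted p of 0.0612 and overlaps of 3 bp 0.109. Far wild-type junctions, 16 at 4 kb or more, limit every statement on their structure.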
